A study of Homo sapiens with 8 samples.

Results

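The genes described here are 40 genes of the hypoxia response and of glycolysis, chosen by symbol, among 19775 genes measured in HuCCT1 cells with and without knockdown of YAP1. They comprise 17 targets of the hypoxia-inducible factors (HIF), 4 genes of oxygen sensing, 17 glycolytic enzymes and 2 kinases of pyruvate dehydrogenase. They were chosen with earlier results of these data known. CA9 was not analysed here, which left 39 genes and 16 HIF targets. HuCCT1 is an established human cholangiocarcinoma line, that is, a cancer of bile duct epithelium. On 4 arrays the cells carried a control shRNA with a scrambled sequence, and on 4 arrays the construct named YAP shRNA 1, so the knockdown rests on 1 shRNA. Both groups received doxycycline at 100 ng/ml for 3 days before seeding to switch on the shRNA, and both grew in medium with tetracycline-free serum. The labels name no low-oxygen treatment. The comparison asks how the transcriptome differs when YAP1, the coactivator at the end of the Hippo pathway, is knocked down.

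HIF is a pair of an oxygen-labile alpha subunit, HIF1A or EPAS1 (HIF2 alpha), and the stable partner ARNT. In oxygen, prolyl hydroxylases of the EGLN family modify the alpha subunit, and VHL then marks it for degradation. When oxygen falls, the alpha subunit accumulates and the pair binds short core motifs near its targets, many of which encode glycolytic enzymes. HIF1A is therefore controlled mainly at the protein level, which arrays do not measure, and cancer cells often express glycolytic genes strongly in oxygen too.

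The values are log2 intensities, 1 per probe set (a group of probes for 1 transcript) and array, and each gene is given by its brightest probe set with a single symbol. Array medians lay between 6.22 and 6.25. YAP1 fell by 2.14 on the log2 scale (limma adjusted p = 6.15e-07), as the labels say, although the series title speaks of overexpression. Control shRNA replicate 4 stood apart from its group, with a mean correlation to the other control arrays of 0.9967 (0.9978 to 0.9980 for the others), and was the control array farthest from the rest for 18 of the 39 genes. Of the 9 measured epithelial and duct markers, 7 had mean log2 values of 12.6 to 14.2 over the 8 arrays. MUC1 was lower at 8.74, and CFTR, at 6.09, lay below the median of all genes. KRT19, CDH1, MUC1 and CFTR, 4 of the 9, rose, or 44.4%, beside 9.49% of all genes. Mean levels of the 5 measured endothelial markers lay between 3.67 and 6.10, the 5 leukocyte markers between 3.12 and 6.76 and the 6 fibroblast markers between 4.75 and 8.21, where the median of all genes was 7.44. Of 8 hepatocyte markers, SERPINA1 was bright (12.7 to 12.9) and rose by 0.19 (limma adjusted p = 0.00877), and the other 7, ALB among them, lay below that median and were not called. Of the endothelial, leukocyte and fibroblast markers, the leukocyte markers LYZ (0.86) and CSF1R (0.31) and the fibroblast marker COL1A1 (0.52) rose and the leukocyte marker PTPRC (-0.22) fell on the log2 scale (limma), and their part in the results below was not tested. No label says whether the replicates came from separate cultures. The p-values therefore reflect how these 8 samples scatter, and that scatter may be technical. In RNA of whole cultures, a change in the share of expressing cells and a change per cell cannot be told apart.

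The HIF core motif was searched in the 250 bases before each transcription start, because HIF binds these letters. The letters searched were ACGTG and GCGTG on both strands, and overlapping matches were joined into 1 stretch. The palindrome CACGTG, an E-box bound by MYC and other factors, holds ACGTG and is counted too. RefSeq promoter windows (build GRCh38.p14) matched 36 of the 39 genes. At least 1 stretch was found for 12 of 14 HIF targets, 14 of 17 glycolytic enzymes and both pyruvate dehydrogenase kinases, beside 57.2% of the 15384 tested genes with a window. Some genes have several windows: by window, the share was 16 of 19 for the HIF targets, 19 of 37 for the glycolytic enzymes and 49.5% for tested genes. The motif GGAATG, bound by TEAD, the DNA-binding partner of YAP, was found on either strand for 2 of the 14 HIF targets and 13.6% of tested genes. A match of letters is a description and says nothing about binding in these cells.

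The upstream windows of 7 genes follow, 5′ to 3′ in the direction of transcription, each ending at the base before the start, with the HIF core stretches in capitals. DDIT4, ANKRD37, PFKFB4 and INSIG2 are shown because they rose with the YAP shRNA, ADM because it fell, and BNIP3 and LDHA because they carry several stretches without a called change, and since they were chosen this way the 7 bear on no relation between stretches and change. INSIG2 and LDHA have 2 windows each, of which the first on the chromosome is shown.
DDIT4, chr10:72273674-72273923, plus strand: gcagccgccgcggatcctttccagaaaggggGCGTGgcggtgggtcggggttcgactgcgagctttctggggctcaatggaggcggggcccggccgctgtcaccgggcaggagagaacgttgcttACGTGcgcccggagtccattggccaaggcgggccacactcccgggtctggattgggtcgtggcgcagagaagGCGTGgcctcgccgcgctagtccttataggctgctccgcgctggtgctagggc
ANKRD37, chr4:185396591-185396840, plus strand: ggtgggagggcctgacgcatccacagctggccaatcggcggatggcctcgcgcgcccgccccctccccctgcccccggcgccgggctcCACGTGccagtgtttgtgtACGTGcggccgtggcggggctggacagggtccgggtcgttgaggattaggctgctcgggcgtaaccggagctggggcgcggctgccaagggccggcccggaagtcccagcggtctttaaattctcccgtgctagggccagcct
PFKFB4, chr3:48556804-48557053, minus strand: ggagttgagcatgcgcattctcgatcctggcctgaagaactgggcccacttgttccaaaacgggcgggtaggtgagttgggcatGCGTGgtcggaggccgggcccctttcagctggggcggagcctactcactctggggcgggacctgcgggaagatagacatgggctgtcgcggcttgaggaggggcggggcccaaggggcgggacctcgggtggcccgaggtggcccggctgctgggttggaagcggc
INSIG2, chr2:118088221-118088470, plus strand: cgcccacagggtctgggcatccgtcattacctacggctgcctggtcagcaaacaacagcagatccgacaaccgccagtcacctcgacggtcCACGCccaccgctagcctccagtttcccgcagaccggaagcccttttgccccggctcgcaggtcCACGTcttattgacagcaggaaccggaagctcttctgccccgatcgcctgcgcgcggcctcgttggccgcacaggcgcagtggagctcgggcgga
ADM, chr11:10304823-10305072, plus strand: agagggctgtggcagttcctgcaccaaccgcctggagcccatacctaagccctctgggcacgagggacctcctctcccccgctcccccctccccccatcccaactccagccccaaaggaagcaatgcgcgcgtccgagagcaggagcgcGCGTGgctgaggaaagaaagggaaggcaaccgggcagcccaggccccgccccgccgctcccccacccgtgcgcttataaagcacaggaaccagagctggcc
BNIP3, chr10:131981924-131982173, minus strand: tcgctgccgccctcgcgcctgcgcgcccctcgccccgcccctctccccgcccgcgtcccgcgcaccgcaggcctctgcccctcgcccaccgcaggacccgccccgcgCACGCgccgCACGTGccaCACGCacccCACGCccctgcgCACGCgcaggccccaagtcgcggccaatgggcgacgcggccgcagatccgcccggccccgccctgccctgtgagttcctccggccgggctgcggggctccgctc
LDHA, chr11:18394313-18394562, plus strand: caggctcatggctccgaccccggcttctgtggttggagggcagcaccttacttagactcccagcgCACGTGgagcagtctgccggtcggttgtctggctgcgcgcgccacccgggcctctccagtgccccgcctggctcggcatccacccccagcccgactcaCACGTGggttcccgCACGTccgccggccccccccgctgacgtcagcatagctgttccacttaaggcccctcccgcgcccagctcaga

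Over all members with a window, a HIF core stretch was found for 9 of 9 that rose and 2 of 2 that fell. It was found for 19 of 25 that were not called, and for 57.2% of tested genes. GGAATG was found for 0, 0 and 5 of these members, in the same order, and for 13.6% of tested genes. NDRG1 and VHL, which rose, and BNIP3L had no window. A relation between motif and change was not tested. ANKRD37 carries its 2 stretches 162 and 143 bases before the start, and the first is the palindrome.

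Many of the HIF targets were higher with the YAP shRNA. Of the 16 measured, 7 rose and 1 fell at a limma adjusted p below 0.05, or 43.8% and 6.25%, beside 9.49% and 7.17% of all genes tested. The list was chosen with earlier results of these data known, so these shares describe the list and do not test it. Of genes above the median level, where 13 of the 16 lie, 15.2% rose. Over the 16 genes the middle log2 fold change (median) was 0.20, beside 0.01 for all genes, and 14 of the 16 values were above 0. The YAP shRNA arrays lay above all control arrays for 8 of the 16 and below them for 1, beside 13.4% and 10.9% of all genes. Without control shRNA replicate 4, 10 rose and 1 fell, with BNIP3L, P4HA1 and MXI1 added, beside 11.4% and 8.25% of all genes. The median deviation of the 16 genes from their control means was between 0.19 and 0.25 on the 4 YAP shRNA arrays and between -0.03 and 0.03 on the control arrays.

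**Figure D1:**
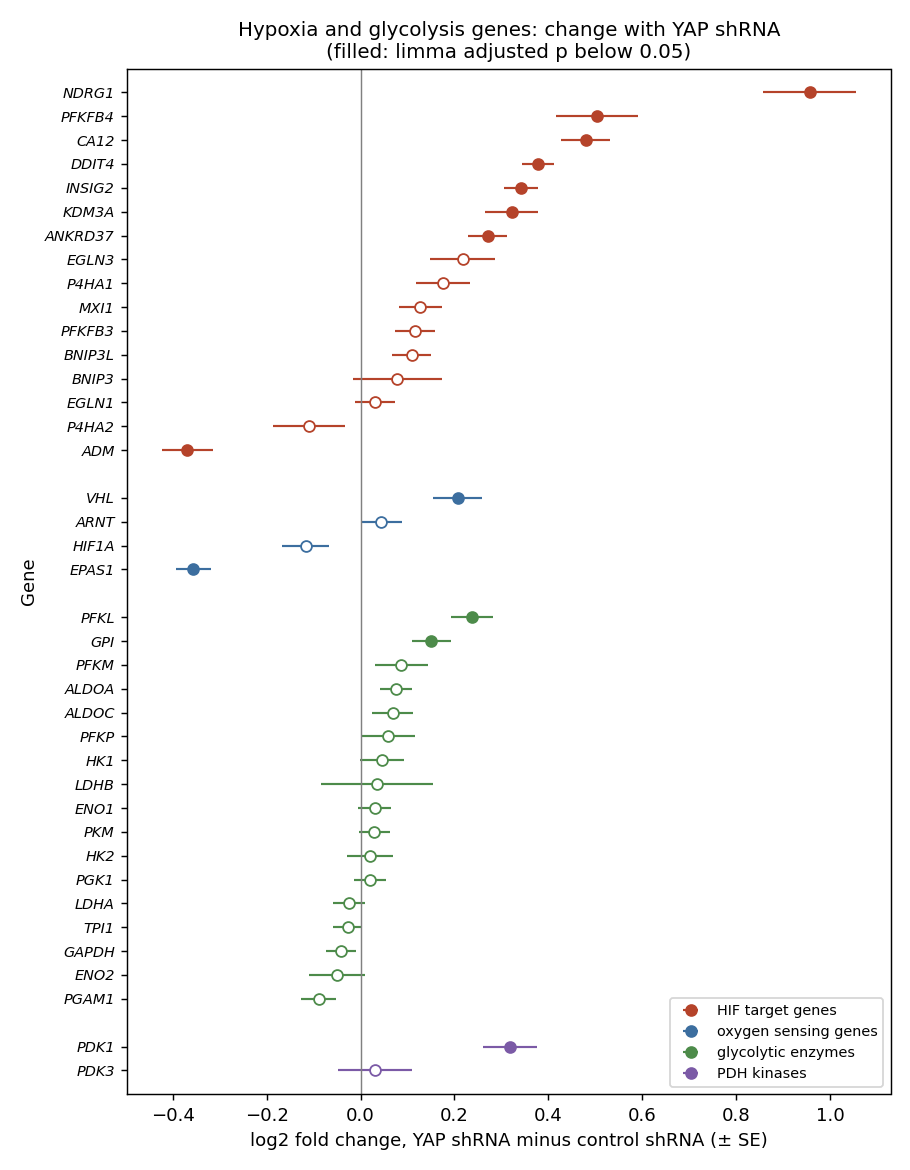
log2 fold change (x axis, YAP shRNA minus control shRNA, with limma standard error) of the 39 genes (y axis), by class, with filled points for an adjusted p below 0.05. NDRG1 is farthest to the right at 0.96 and ADM farthest to the left at -0.37, and most glycolytic enzymes sit within 0.1 of 0.

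NDRG1, a stress-responsive gene long used as a hypoxia marker, rose most. Its control values were 10.32, 10.23, 10.33 and 10.72, and its YAP shRNA values 11.33, 11.35, 11.34 and 11.41. Every YAP shRNA array was above every control array, and control shRNA replicate 4 was the highest control. The rise was 1.94-fold (log2 fold change 0.96, SE 0.0986; limma adjusted p = 0.000365). NDRG1 lies on chromosome 8, where the median over all tested genes was 0.07.

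The regulators of glycolytic flux PFKFB3 and PFKFB4 make fructose 2,6-bisphosphate, the activator of phosphofructokinase. PFKFB4 stood at 8.22, 7.85, 8.17 and 7.90 in the control arrays and at 8.50, 8.55, 8.55 and 8.56 with the YAP shRNA. The YAP shRNA arrays were close together and above the controls, which fell into a higher and a lower pair. PFKFB4 rose 1.42-fold (log2 fold change 0.50, SE 0.0872; limma adjusted p = 0.00498). Its second, dimmer probe set gave -0.04 and was not called, and the mean of the 2 gave 0.23, still called (limma adjusted p = 0.00883). PFKFB3 had control values of 12.44, 12.28, 12.34 and 12.34 and YAP shRNA values of 12.48, 12.47, 12.49 and 12.43. Control shRNA replicate 1 reached into the YAP shRNA range, and the log2 fold change of 0.12 did not pass (limma adjusted p = 0.106).

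CA12, a membrane carbonic anhydrase that hydrates carbon dioxide outside the cell, rose 1.39-fold. It stood at 6.88, 6.82, 6.91 and 6.78 in the control arrays and at 7.33, 7.24, 7.43 and 7.31 with the YAP shRNA. The groups were apart (log2 fold change 0.48, SE 0.0518; limma adjusted p = 0.000456). All 7 of its probe sets had positive values, from 0.02 to 0.49, and 4 of them were called as higher over all probe sets, beside 6.95% of all probe sets. With the 7 averaged the value was 0.30, still called.

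DDIT4 (REDD1), an inhibitor of mTORC1 signalling, had the tightest groups among the HIF targets that rose. Its control values were 13.00, 12.97, 12.96 and 13.02 and its YAP shRNA values 13.39, 13.37, 13.35 and 13.35. The groups were far apart for their spread (SD 0.0243 and 0.0188, n = 4 and 4). DDIT4 rose by 0.38 on the log2 scale ( SE 0.0340; limma adjusted p = 0.000204). INSIG2, which holds the sterol sensor SCAP in the endoplasmic reticulum, was similarly tight. It went from 11.37, 11.37, 11.40 and 11.43 to 11.70, 11.75, 11.73 and 11.76, again with no overlap. The log2 fold change was 0.34 (SE 0.0354; limma adjusted p = 0.000374).

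KDM3A, a histone H3 lysine demethylase, and ANKRD37, a small ankyrin repeat protein, also rose. KDM3A went from 10.06, 10.02, 10.23 and 10.02 to 10.41, 10.44, 10.34 and 10.42 (log2 fold change 0.32; limma adjusted p = 0.00537). ANKRD37 went from 10.11, 10.20, 10.18 and 10.08 to 10.39, 10.46, 10.39 and 10.43 (log2 fold change 0.27; limma adjusted p = 0.00268). Neither gene's groups overlapped. With the mean of each gene's probe sets, which adds a dim probe set to both, the calls were lost (log2 fold changes 0.19 and 0.09; limma adjusted p = 0.352 and 0.251).

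ADM, the vasodilator peptide adrenomedullin and a textbook HIF target, went the other way. It stood at 9.79, 9.78, 9.86 and 9.85 in the control arrays and at 9.50, 9.50, 9.31 and 9.48 with the YAP shRNA. All YAP shRNA arrays were below all controls, with replicate 3 the lowest. ADM fell 1.29-fold (log2 fold change -0.37, SE 0.0539; limma adjusted p = 0.00213).

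**Figure D2:**
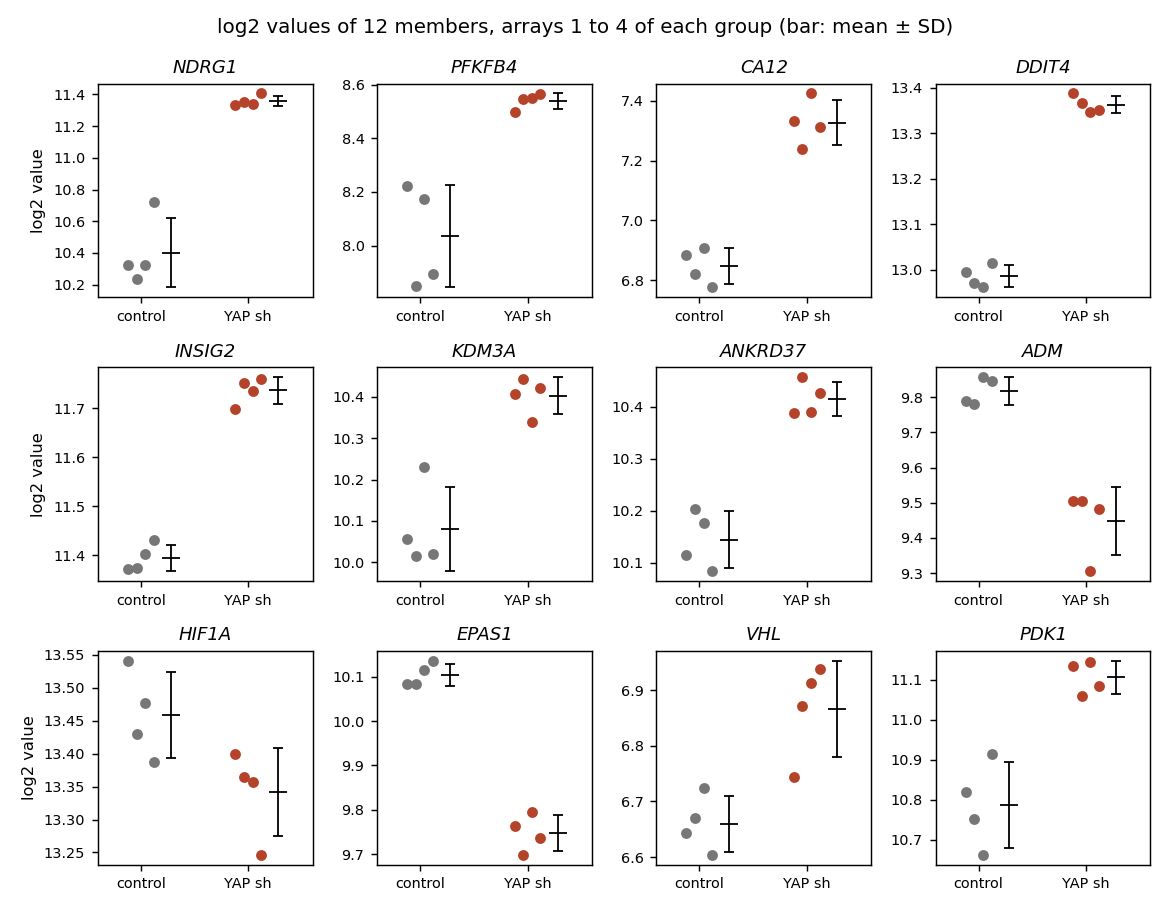
log2 values (y axis, a separate range in each panel) of 12 genes on the 4 control shRNA and 4 YAP shRNA arrays (x axis), with mean and SD beside the points. The groups are apart in every panel except that of HIF1A, where a control array lies at 13.39 and a YAP shRNA array at 13.40.

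The other 8 measured HIF targets did not pass the test. The oxygen-sensing hydroxylase EGLN3, itself induced by HIF, had control values of 6.75, 6.63, 6.62 and 6.61 and YAP shRNA values of 6.70, 6.86, 7.01 and 6.92. Only YAP shRNA replicate 1 fell within the control range, and the log2 fold change was 0.22 (limma adjusted p = 0.0674). EGLN1, the main hydroxylase for HIF1A, was at 0.03, and none of its 4 probe sets was called over all probe sets. MXI1, an antagonist of MYC, had groups that did not overlap (10.70 to 10.87 against 10.89 to 10.95) but a log2 fold change of only 0.13 (limma adjusted p = 0.100). The mitophagy receptor BNIP3L, of chromosome 8, was at 0.11. Its relative BNIP3 was dim, at 4.93 to 5.31 over the 8 arrays, and its groups overlapped.

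The collagen prolyl 4-hydroxylase subunits P4HA1 and P4HA2 were shaped by control shRNA replicate 4. P4HA1 stood at 11.91, 11.88, 11.89 and 12.09 in the controls and at 12.16, 12.17, 12.11 and 12.04 with the YAP shRNA (log2 fold change 0.18; limma adjusted p = 0.0750). P4HA2 stood at 11.35, 11.41, 11.38 and 11.67 and at 11.42, 11.33, 11.37 and 11.25 (log2 fold change -0.11; limma adjusted p = 0.400). In both genes replicate 4 was the highest control, and without it P4HA1 passed the test.

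Among the oxygen sensing genes, EPAS1 fell and the call on VHL was weak. EPAS1 went from 10.08, 10.08, 10.11 and 10.14 to 9.76, 9.70, 9.80 and 9.74, with the groups well apart. It fell 1.28-fold (log2 fold change -0.36, SE 0.0374; limma adjusted p = 0.000397). Its other 2 probe sets, at means of 5.49 and 3.23, gave -0.08 and 0.04, and with the mean of the 3 the call was lost (-0.13; limma adjusted p = 0.163).

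HIF1A had control values of 13.54, 13.43, 13.48 and 13.39 and YAP shRNA values of 13.40, 13.36, 13.36 and 13.25. The YAP shRNA values were mostly lower, with an overlap at 1 array of each group. The log2 fold change of -0.12 did not pass (limma adjusted p = 0.162). ARNT, their common partner, was at 0.04 with overlapping groups.

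VHL, the substrate receptor of the ubiquitin ligase for HIF alpha, went from 6.64, 6.67, 6.72 and 6.60 to 6.74, 6.87, 6.91 and 6.94. The groups were just apart, with control shRNA replicate 3 and YAP shRNA replicate 1 closest. The log2 fold change was 0.21 (SE 0.0524; limma adjusted p = 0.0285). The call was lost in 5 of the 8 fits that leave out 1 array, which were those without replicate 1 or 2 of the control shRNA or without replicate 2, 3 or 4 of the YAP shRNA. It was also lost with quantile normalization (limma adjusted p = 0.0629). Of these 4 genes, then, 1 rose and 1 fell, beside 9.49% and 7.17% of all genes. Without control shRNA replicate 4 it was again 1 and 1, beside 11.4% and 8.25%.

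Most glycolytic enzymes changed little. Of 17, 2 rose and 0 fell (limma), or 11.8% risen, close to the 9.49% of all genes. At an unadjusted limma p under 0.05, GPI, PFKL and PGAM1 passed. Of all genes, 16.7% passed even the adjusted limit, so at least that share passes the unadjusted one. The median log2 fold change was 0.03, and the values ran from -0.09 to 0.24. Without regard to sign the median was 0.046, beside 0.092 for all genes and 0.058 for genes in the top 10% by level. The probe sets of 11 of the 17 were in the top 10% by level, where 7.79% of genes rose and 8.95% fell. That position depends on probe affinity as well as on transcript amount. Without control shRNA replicate 4 the counts were 2 and 0, beside 11.4% and 8.25% of all genes.

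**Figure D3:**
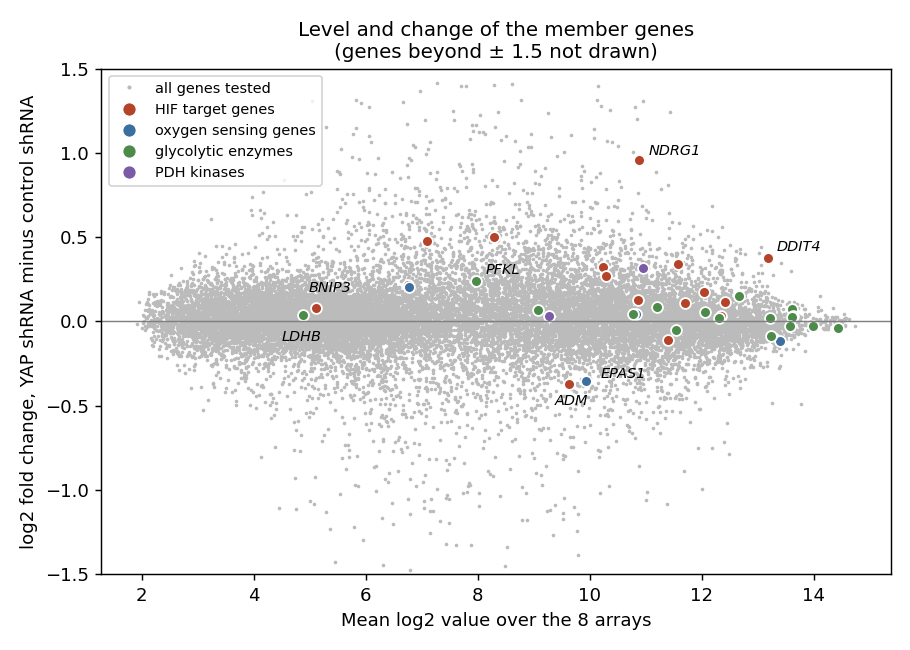
Mean log2 value over the 8 arrays (x axis) against log2 fold change (y axis) for all genes (grey) and the 39 genes by class. Glycolytic enzymes crowd at the bright end near 0, with LDHB an exception at a mean of 4.87, while HIF targets spread upward from 0.

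The liver-type phosphofructokinase PFKL, a subunit of the committed step, rose 1.18-fold. It went from 7.83, 7.91, 7.83 and 7.84 to 8.13, 8.09, 8.15 and 7.998, and YAP shRNA replicate 4 came closest to the controls (log2 fold change 0.24, SE 0.0453; limma adjusted p = 0.00795). Its second probe set gave 0.19 and was not called over all probe sets (limma adjusted p = 0.0702). The muscle and platelet types PFKM and PFKP were at 0.09 and 0.06, and control shRNA replicate 4 was the lowest array for both.

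GPI, which converts glucose 6-phosphate to fructose 6-phosphate, went from 12.62, 12.63, 12.61 and 12.50 to 12.74, 12.72, 12.73 and 12.78. The groups did not overlap, and control shRNA replicate 4 was the lowest array. The log2 fold change was 0.15 (limma adjusted p = 0.0392), and the call was lost in every fit that left out 1 array other than control shRNA replicate 4, and with median centring (limma adjusted p = 0.102).

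The upper steps otherwise gave small values. The hexokinases HK1 and HK2, which trap glucose in the cell, were at 0.05 and 0.02. The 2 dimmer HK2 probe sets gave -0.28 and -0.30 without a call. The aldolases ALDOA and ALDOC were at 0.08 and 0.07. For ALDOA the groups did not overlap (13.55 to 13.58 against 13.62 to 13.68), and the change was still too small to pass (limma adjusted p = 0.181).

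The steps from the triose phosphates onward gave values on both sides of 0. TPI1, GAPDH and PGAM1 had all YAP shRNA arrays below all control arrays by narrow gaps. Their group means were lower by 0.03, 0.04 and 0.09, and none passed. Of the 17 glycolytic enzymes, the YAP shRNA arrays lay above all controls for 3 and below for 3, or 17.6% each. The shares were 13.4% and 10.9% of all genes, and 16.4% and 23% of genes in the top 10% by level. For TPI1 the SD was only 0.0106 in the controls and 0.00456 with the YAP shRNA. GAPDH, often used as a reference gene, was at 14.45, 14.46, 14.45 and 14.47 and at 14.43, 14.41, 14.40 and 14.41. The intensity-matched spread of a trended limma fit called ALDOA, GAPDH and PGAM1, the last 2 as lower. PGK1, ENO1, ENO2 and PKM were at 0.02, 0.03, -0.05 and 0.03, with overlapping groups. The 6 PGK1 probe sets ran from -0.11 to 0.25, 5 of them above 0, and none was called over all probe sets.

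LDHA, which turns pyruvate into lactate and is a classical HIF target, was at 14.03, 13.99, 14.00 and 13.99 in the controls and 14.01, 13.98, 13.99 and 13.94 with the YAP shRNA. The groups overlapped, and the log2 fold change was -0.02 (limma adjusted p = 0.714). LDHB, the heart-type subunit, was dim on both of its probe sets, at 4.61 to 5.24 on the brighter one, and gave 0.04 with a wide SE of 0.120.

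Of the kinases that switch off pyruvate dehydrogenase, PDK1 rose. It went from 10.82, 10.75, 10.66 and 10.91 to 11.13, 11.06, 11.14 and 11.08, with every YAP shRNA array above the controls (log2 fold change 0.32, SE 0.0576; limma adjusted p = 0.00614). Of 2 further PDK1 probe sets, the dimmer gave 0.00 and the other 0.23, which was also called over all probe sets (limma adjusted p = 0.00903). With the 3 averaged PDK1 was at 0.18, still called (limma adjusted p = 0.0308). PDK3 was at 0.03 on its brightest probe set, with controls of 9.12 to 9.40 and YAP shRNA values of 9.19 to 9.46. Its other 4 probe sets gave -0.07 to -0.29, and 1 of them was called as lower over all probe sets, beside 6.62% of all probe sets (-0.24; limma adjusted p = 0.0428), so the PDK3 probe sets disagreed in sign.

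**Figure D4:**
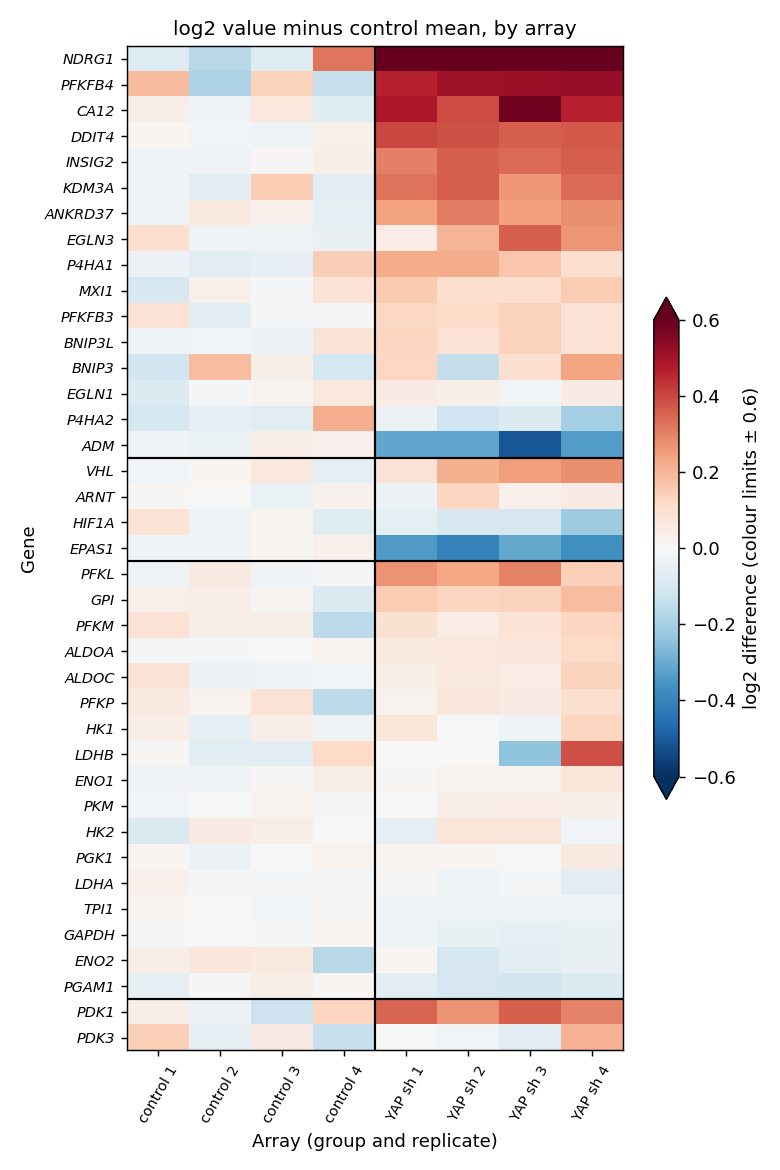
log2 value minus the gene's control mean (colour, limits ± 0.6, NDRG1 lies beyond them) for the 39 genes (rows, by class) on the 8 arrays (columns). Of the 16 HIF targets in the upper block, 12 are red on all 4 YAP shRNA arrays, BNIP3 and EGLN1 are mixed, and P4HA2 and ADM are blue. The glycolytic block is mostly pale.

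Isozymes and paralogs were compared by the log2 difference between the 2 genes on each array, whose change shows unequal change but whose level depends on the probes. In 3 of 13 pairs the groups did not overlap. Of all single genes, the YAP shRNA arrays lay above all controls for 13.4% and below them for 10.9%. The difference of PFKFB3 minus PFKFB4 fell by 0.39 ± 0.0758 (SE), that of P4HA1 minus P4HA2 rose by 0.29 ± 0.0367, and that of HIF1A minus EPAS1 rose by 0.24 ± 0.0549. Each had an exact two-sided permutation p of 0.0286, the smallest for 4 arrays against 4. Adjusted over the 13 pairs, it was 0.124, so none of the pairs passed. With only 3 pairs at the smallest p, none could pass this adjustment, whatever the size of the change. The adjusted values therefore do not decide whether these pairs changed unequally. For PDK1 minus PDK3 the change was 0.29 ± 0.120 and for PFKP minus PFKL -0.18 ± 0.0746, both with an exact permutation p of 0.0571 (adjusted p = 0.149). Changes in HK1 minus HK2, ALDOA minus ALDOC and BNIP3 minus BNIP3L were within 0.04 of 0.

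**Figure D5:**
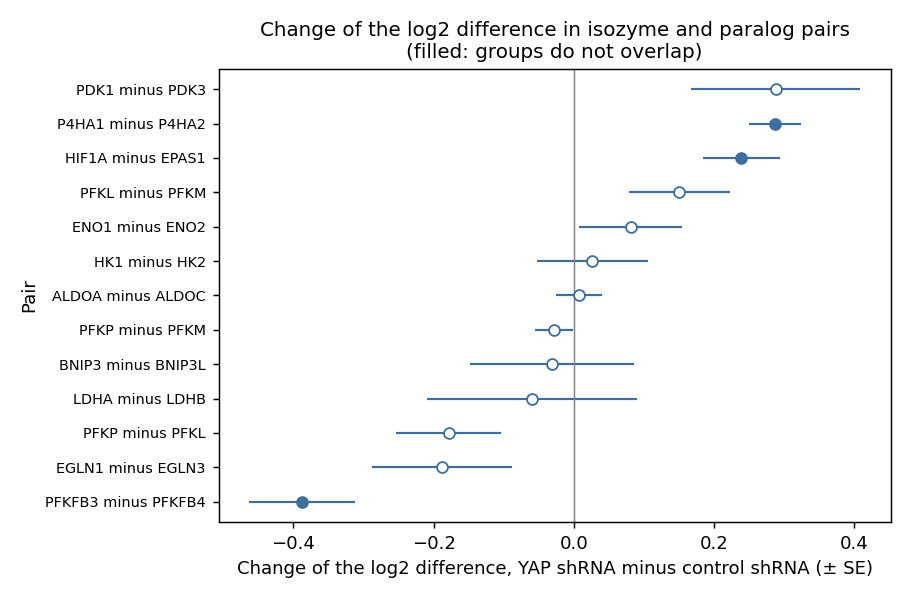
Change of the log2 difference between 2 related genes (x axis, YAP shRNA minus control shRNA, with SE over 4 and 4 arrays) for 13 pairs (y axis), with filled points where the groups do not overlap. The 3 filled points lie at -0.39, 0.24 and 0.29. None passed after adjustment, which only 3 pairs at the smallest exact p cannot pass.

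Further genes of the pathway moved in both directions. Of 38 measured genes linked to hypoxia outside the 40, 8 rose and 7 fell (limma adjusted p below 0.05), or 21.1% and 18.4%, with a median of 0.02. Of all genes, 9.49% rose and 7.17% fell, and of genes above the median level, where 31 of the 38 lie, 15.2% and 11.4%. The rises were led by the zinc finger gene ZNF395 (0.50), ANKZF1 (0.45), a factor of ribosome quality control, the glucose transporter gene SLC2A3 (0.44) and the histone demethylase gene KDM4B (0.23). TMEM45A, which encodes a transmembrane protein, fell most, by 0.89, ahead of the collagen cross-linking enzyme LOX (fell by 0.51), the secreted glycoprotein STC1 (fell by 0.42) and the ARNT relative ARNT2 (fell by 0.41). ZNF395 and STC1 lie on chromosome 8. The calls on ZNF395 and KDM4B were lost on probe sets without the suffixes of possible cross-hybridisation (0.07 and 0.08). With probe sets averaged per gene, ZNF395 was at 0.26 and still called, and KDM4B at 0.09 and not. The SLC2A3 call was lost in the 6 fits that left out 1 array other than control shRNA replicate 3 or 4 (limma adjusted p = 0.0523 to 0.0580) and with the replicate block (0.0548), and the KDM4B call without YAP shRNA replicate 1 or 4. VEGFA and SLC2A1, the angiogenic factor and the main glucose transporter induced by HIF, were at -0.12 and -0.04 and did not pass (these 2 were chosen after their values were seen). Without control shRNA replicate 4, 10 rose and 7 fell, beside 11.4% and 8.25% of all genes. The count of rises fell to 4 without either of YAP shRNA replicates 3 and 4 and to 5 without either of replicates 1 and 2. In these 4 fits 6.89% to 7.27% of all genes rose.

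Of 31 measured genes of other glycolytic isozymes and of pyruvate and glucose metabolism, 4 rose and 3 fell (limma adjusted p below 0.05), or 12.9% and 9.68%, near the shares of all genes. PKLR, the liver and red cell pyruvate kinase, rose by 0.53, PCK2, the mitochondrial PEP carboxykinase, by 0.28, ADPGK, an ADP-dependent glucokinase, by 0.18 and PGM1, a phosphoglucomutase, by 0.13. MINPP1, an inositol polyphosphate phosphatase that also acts on bisphosphoglycerate, fell by 0.39, TIGAR, which lowers fructose 2,6-bisphosphate, by 0.17 and PDHX, a pyruvate dehydrogenase subunit, by 0.12. The calls on PGM1 and PDHX were lost in the 7 fits that left out 1 array other than control shRNA replicate 4, and that on TIGAR in the 6 that left out 1 array other than control shRNA replicate 1 or 4. With the replicate block, the calls on ADPGK, PGM1, TIGAR and PDHX were lost (limma adjusted p = 0.0587 to 0.155), with median centring that on PGM1 (0.138), and with averaged probe sets those on PGM1 and PDHX (0.0511 and 0.0516), where PKLR was at 0.19 and still called. Without control shRNA replicate 4, 6 rose and 4 fell, beside 11.4% and 8.25% of all genes. Without any 1 of the YAP shRNA arrays 1 fell, beside 5.15% to 5.62% of all genes.

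The direction of small changes depends on the scale. Over all genes, 1876 rose and 1418 fell, and with each array centred on its median 1485 rose and 1879 fell. Of the 13 called members, those of VHL and GPI were lost under that centring.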

How the data were processed

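RNA of 8 HuCCT1 samples was amplified and biotin-labelled for Affymetrix arrays, per the labels' protocols. The deposited values were taken as log2 intensities, with the base inferred from their range of 1.72 to 14.9. Their background correction, summarisation and normalization are, in the sources used here, not given. They were used as deposited. No 2 arrays held identical values. GEO's platform annotation gave 1 symbol to 41097 of 54675 probe sets, and each of 19775 genes was represented by the brightest of these. Entrez IDs matched the RefSeq table (GRCh38.p14) for 41043 probe sets. limma 3.58.1 in R 4.3.3 was fitted over all genes, YAP shRNA minus control shRNA, with no block and no filter, and Benjamini-Hochberg adjustment over all genes, called below 0.05. Single values used exact permutation tests in scipy 1.17.1. In simulated data for this comparison (19775 genes), 68 genes were changed by 0.3 log2, 66 by 0.5 and 66 by 1. Of these, 25.0%, 72.7% and 98.5% were called. In the real fit 3294 genes were called, so its limit on the unadjusted p was looser. The simulated shares therefore do not measure its power. The members and lists were chosen with earlier results of these data known. All members could be named, and of other pathway genes the 4 largest rises and falls per list among those called. Promoter windows come from RefSeq. The number of arrays limits the precision. Figures were drawn with matplotlib 3.10.9.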

Additional observations from a re-analysis of the deposited data

Results flagged for a closer look

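In 78 groups of 4 values (39 genes in 2 groups), 8 held a single array that stood well away from the remaining 3. Chance alone would give about 3.9 such groups if the values were normal and the groups independent. The 39 genes share the same arrays, so the groups are not independent, and 8 against 3.9 decides nothing about chance. In control shRNA replicate 4, BNIP3L was high at 11.71 (11.60 to 11.62 in the other controls), P4HA1 high at 12.09 (11.88 to 11.91) and ENO2 low at 11.39 (11.60 to 11.62). In control shRNA replicate 1, EGLN3 was high at 6.75 (6.61 to 6.63), ALDOC at 9.13 (9.01 to 9.03) and LDHA at 14.03 (13.99 to 14.00). ADM was low at 9.31 in YAP shRNA replicate 3 (9.48 to 9.50), and ENO1 high at 13.69 in YAP shRNA replicate 4 (13.62 to 13.63).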

How the results depend on the processing

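Across the 20 alternatives run, no called member changed sign, but most of them could not change one. The limits on dim genes, the trended and robust fits, the other thresholds and the block leave the fold change as it was. The groups of every called member did not overlap, so array weights or leaving out 1 array could not reverse a sign. Without _x_at and _s_at probe sets, NDRG1, DDIT4, KDM3A, GPI and PFKL had no probe set left. Of all genes, 9.49% rose and 7.17% fell in the main fit. The shares were 7.85% and 6.38% without _x_at and _s_at probe sets, and 8.12% and 7.04% with probe sets averaged. They were 11.9% and 9.6% with a trended spread, 12% and 8.57% with array weights, and 6.18% and 4.47% with the block. With quantile normalization they were 8.61% and 8.68%, with median centring 7.51% and 9.5%. Without the dimmest 25% or 50% of genes they were 14.6% and 11.3% or 21.9% and 17.4%. The 7 HIF targets risen became 4 without _x_at and _s_at probe sets (where 27 of 39 members were left), and 11 with a trended spread or array weights. Leaving out 1 array gave 7 to 10 risen and 1 fallen, beside 6.89% to 11.4% and 5.15% to 8.25% of all genes. For the limits of 0.01 and 0.1 the shares of all genes are not given here. The 1 oxygen sensing gene risen, VHL, became 0 with quantile normalization, median centring, without the dimmest 50% of genes, with probe sets averaged per gene, without _x_at and _s_at probe sets, with a trended spread, at an adjusted p below 0.01 and with the replicate block, and leaving out 1 array gave 0 to 1. The 1 fallen, EPAS1, became 0 with probe sets averaged per gene and 2 with a trended spread. The 2 glycolytic enzymes risen became 1 with median centring, at 0.01 and with the block, and 0 without _x_at and _s_at probe sets, and leaving out 1 array gave 1 to 2. The 0 fallen became 1 without the dimmest 50% and 2 with a trended spread. Of other hypoxia genes, the 8 risen became 5 with the mean of probe sets, 1 without _x_at and _s_at probe sets, 2 at 0.01 and 3 with the block, and leaving out 1 array gave 4 to 10. The 7 fallen became 4 without _x_at and _s_at probe sets. Of other glycolysis and pyruvate genes, the 4 risen became 2 without _x_at and _s_at probe sets, 7 with array weights and 2 with the block, and leaving out 1 array gave 3 to 6. The 3 fallen became 5 without the dimmest 25% or 50% of genes, with quantile normalization or with a trended spread, 6 with median centring or at an adjusted p below 0.1, 0 without _x_at and _s_at probe sets and 1 at 0.01 or with the block, and leaving out 1 array gave 1 to 4. The limits on dim genes and the removal of probe sets change which genes are tested; the cause of the other shifts was not tested. None of the 13 pairs passed under the 4 alternatives tried, where the smallest possible exact p was again 0.0286. With 3 arrays against 4, no exact p below 0.0571 is possible. Same-numbered samples did not deviate together (correlations -0.21 to 0.0020, and 0 of 8 samples correlated best with their own number), so the block, which left 1222 risen and 884 fallen genes of 1876 and 1418, rests on a shared number only.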
